A study of Mus musculus with 12 samples.

Results

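The miRNA profile of mouse embryonic stem cells that make Ago2 as their Argonaute protein was set against that of wildtype mouse embryonic stem cells, miRNA by miRNA. The comparison rests on 2 of the 12 small-RNA libraries of the series, 1 per group, chosen by their labels (line, doxycycline and cloning protocol) and not by any measured value. The rescued cells were the TT-FHAgo2 line with doxycycline at 2.5 µg/mL, a clonal line in which the drug switches on FLAG- and HA-tagged Ago2, and the labels aim this dose at the Ago2 level of wildtype cells. The reference was the wildtype line without doxycycline. Libraries of the TT-FHAgo2 line without doxycycline and of a Dicer null line, also without the drug, gave the background measured in the same way. All 4 came from total RNA of 18 to 75 nt cut from a gel and were made by ligation that needs a 5' phosphate, the end that Drosha and Dicer leave. All cells grew on gelatin with serum and leukemia inhibitory factor. Per the labels the TT-FHAgo2 line was propagated in 0.1 µg/mL doxycycline, and the series text describes these cells as lacking Ago proteins of their own. The rescued and wildtype libraries differed in the clone, in the set of Argonautes, in the tag and in exposure to doxycycline all at once, and these differences cannot be told apart. With 1 library per group no test could be made, so ratios are given with 95% counting intervals (exact conditional binomial), which cover counting error only.

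A miRNA is cut from a hairpin transcript, as a rule first by Drosha and then by Dicer, and 1 strand of the resulting duplex is held by an Argonaute protein that it guides to target messenger RNAs. The strand comes from the 5' arm (5p) or the 3' arm (3p) of the hairpin, and its bases 2 to 8, the seed, choose the targets. Argonautes also protect the strand from decay, and Ago2 is the mammalian Argonaute that efficiently slices its targets. In embryonic stem cells of the mouse the miR-290-295 cluster is the best known family; it shares a seed with the miR-302 cluster of later, primed pluripotent cells and a similar one with the miR-17-92 cluster and its paralogs.

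The mature sequences on which the comparison turns are shown by seed, from RefSeq (GRCm38.p6), with bases 2 to 8 in capitals. The first set carries the seed AAGUGCU and comes from the miR-290-295 cluster on chromosome 7 (chr7:3218626-3220841, plus strand) and the miR-302 cluster (with miR-367) on chromosome 3 (chr3:127545228-127545807, plus strand); they are shown because arms of both clusters share the seed but stood far apart in the comparison.
miR-294-3p: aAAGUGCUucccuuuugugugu
miR-295-3p: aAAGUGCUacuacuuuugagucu
miR-291a-3p: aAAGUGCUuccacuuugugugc
miR-302b-3p: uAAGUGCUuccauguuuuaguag
miR-302d-3p: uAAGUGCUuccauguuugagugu
The second set, with the seed CUCAAAC, holds the 2 most abundant 5' arms of the miR-290-295 cluster, Mir292-5p and Mir293-5p, and Mir290a-5p, which shares their seed.
miR-292a-5p: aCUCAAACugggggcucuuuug
miR-293-5p: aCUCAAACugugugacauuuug
miR-290a-5p: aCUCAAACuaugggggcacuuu
The third set, with the seed AAAGUGC, is spread over the miR-17-92 cluster (chr14:115043671-115044506, plus strand), the miR-106a-363 cluster (chrX:52741693-52742567, minus strand) and the miR-106b-25 cluster (chr5:138165321-138165818, minus strand).
miR-17-5p: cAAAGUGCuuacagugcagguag
miR-20a-5p: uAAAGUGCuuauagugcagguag
miR-20b-5p: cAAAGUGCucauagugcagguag
miR-106a-5p: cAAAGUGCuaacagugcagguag
miR-93-5p: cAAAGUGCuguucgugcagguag
miR-106b-5p: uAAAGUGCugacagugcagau
The fourth set shows examples, outside these families, from among the 10 lowest and the 10 highest ratios.
miR-205-5p: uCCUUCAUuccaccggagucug
miR-210-3p: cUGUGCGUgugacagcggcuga
let-7a-5p: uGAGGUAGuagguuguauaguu
let-7f-5p: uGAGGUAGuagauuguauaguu
miR-142a-5p: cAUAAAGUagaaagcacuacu
miR-142a-3p: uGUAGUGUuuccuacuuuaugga

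The files held 27829938 reads in the rescued cells, 26542602 without doxycycline, 78762632 in Dicer null cells and 32255916 in wildtype cells. A count of 0 then allows up to 0.108 CPM (reads per 1000000 reads of the file), 0.113 CPM, 0.0381 CPM and 0.0930 CPM in the same order. As a check of the labels, fragments of the Argonaute transcripts were counted among the same reads. Ago1 fragments were at 0 in the rescued cells and at 0 in the cells without doxycycline, against 407 (5.17 CPM) in Dicer null and 34 (1.05 CPM) in wildtype cells. Ago2 fragments stood at 82 (2.95 CPM) in the rescued cells and 75 (2.83 CPM) without doxycycline, against 554 (7.03 CPM) in Dicer null and 128 (3.97 CPM) in wildtype cells, so this check did not separate the induced line from the uninduced one. Ago3 fragments did not follow the label, with 48 (1.73 CPM) in the rescued cells and 43 (1.62 CPM) without doxycycline, against 136 (1.73 CPM) in Dicer null and 28 (0.868 CPM) in wildtype cells. Ago4 gave 3 fragments or fewer in every library. Such fragments of longer RNAs do not measure protein, and a transcript can remain where no protein is made.

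The rescue brought back a large miRNA pool that stayed under the wildtype one. Reads inside miRNA hairpins made up 10.3% of all reads in the rescued cells (95% interval 10.27 to 10.29), 1.30% without doxycycline, 1.42% in Dicer null cells and 21.1% in wildtype cells (21.08 to 21.11). Most of these reads had the length of a mature miRNA, 20 to 24 nt, in the rescued cells (89.2%) and in wildtype cells (91.8%), but 25.9% did without doxycycline and 14.0% in Dicer null cells. Among all reads of 20 to 24 nt, hairpins took 39.3% in the rescued cells, 2.27% without doxycycline, 1.36% in Dicer null cells and 57.3% in wildtype cells. In bulk RNA, fewer cells holding a miRNA and less of it per cell cannot be told apart.

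Summed by arm, 2081 features had reads in the rescued or the wildtype cells, and 306 reached a mean of 10 CPM over both libraries; these 306 held 99.1% of hairpin reads in the rescued cells and 99.2% in wildtype cells. Mir183-3p lay just inside this minimum (mean 10.1 CPM) and Gm47277-5p just outside it (9.98 CPM). Of the 306 arms, 9 (2.94%) were at least 2-fold higher in the rescued cells and 179 (58.5%) at least 2-fold lower. The median log2 ratio of rescued over wildtype cells was −1.31, a level of 40.2% of wildtype, with a range of −6.71 to 1.79. Counting error was small beside this range, since the interval lay wholly under equality for 259 arms and wholly over it for 40.

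Not all annotated hairpins behave as miRNAs, so arms were also split by libraries outside this comparison, the FLAG pull-downs and inputs of the same TT-FHAgo2 line (2 libraries each), as enriched when both pull-downs lay above both inputs. The 271 enriched arms summed to 93052 CPM in the rescued cells, 2167 CPM without doxycycline, 1270 CPM in Dicer null cells and 200320 CPM in wildtype cells. Their summed level was thus 46.5% of wildtype, and the median arm stood at 34.96%. Of these 271 arms, 12 were under 10% of wildtype, 69 from 10 to 25%, 94 from 25 to 50%, 71 from 50 to 100%, 18 from 100 to 200% and 7 at 200% or more. The 35 arms without enrichment had 2 arms at least 2-fold higher and 4 lower (median log2 −0.03), and their sums were alike with and without doxycycline, 8757 CPM in the rescued cells, 10336 CPM without doxycycline, 12457 CPM in Dicer null cells and 8873 CPM in wildtype cells. Snord43-3p, a fragment of a small nucleolar RNA and the most abundant of the 35, stood at 2689, 2906, 3344 and 3499 CPM in that order.

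**Figure D1:**
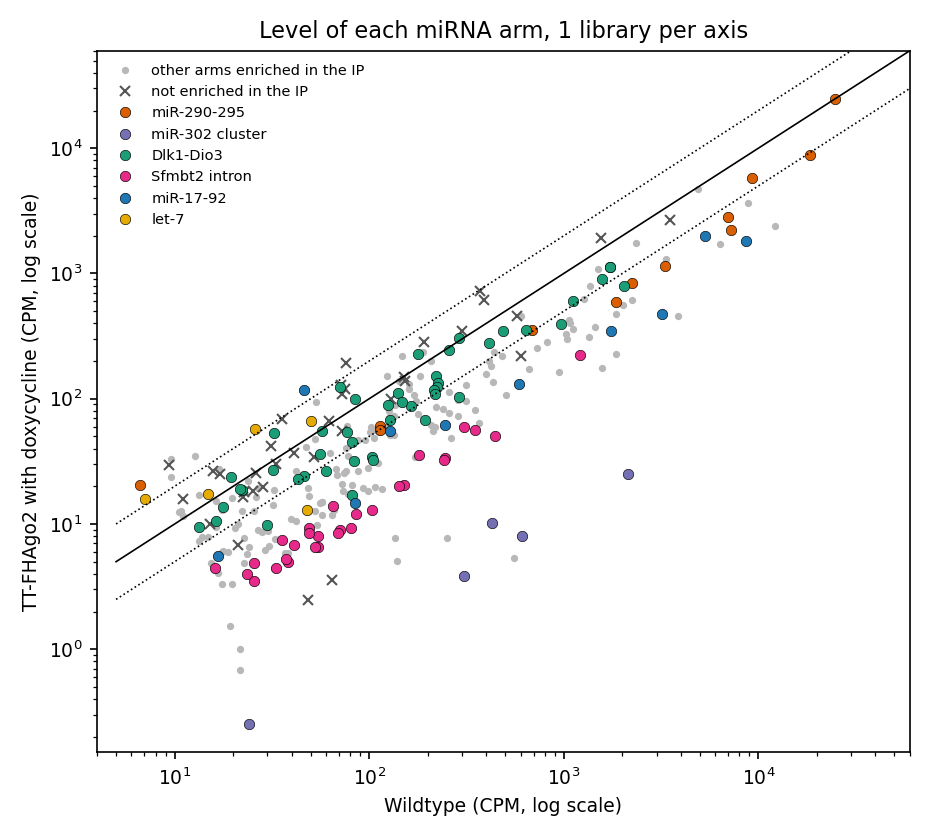
Level of each of the 306 arms in TT-FHAgo2 cells with doxycycline (vertical axis) and in wildtype cells (horizontal axis), both in CPM on log scales, 1 library each. The solid line is equality and the dotted lines are 2-fold; most points lie under the lower dotted line, Mir292-5p lies on equality at the top right, and Mir205-5p and the miR-302 arms lie far below.

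The order of the miRNAs was largely kept while their ratios spread. Of the 20 most abundant arms in either library 15 were shared, and Spearman's rho between the levels of the 271 enriched arms was 0.82, given as a description across arms that share their libraries. The 10 most abundant arms held 59.0% of the summed level of the 306 arms in the rescued cells and 51.6% in wildtype cells. The SD of the log2 ratio over enriched arms was 1.32 between rescued and wildtype cells. Replicate libraries of a single group, made by another protocol and in other runs, gave an SD of 0.70 for tagged inputs (114 arms with 10 CPM), 0.997 for untagged inputs (136 arms) and 0.60 for tagged pull-downs (250 arms). Ratios more than 2-fold from their own median were 36.2% of the enriched arms here, against 9.65%, 18.4% and 9.6% between those replicates. These replicate pairs are a yardstick for the size of a ratio and not an error for this pair.

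The file total can hide how the miRNAs stand against each other, so each arm was also taken as a share of hairpin reads of 20 to 24 nt. On this scale 54 arms (17.6%) were at least 2-fold higher and 85 (27.8%) at least 2-fold lower in the rescued cells, with a median log2 ratio of −0.26. Many of the higher arms were not enriched in the pull-down. The 271 enriched arms had 31 higher and 83 lower (median log2 −0.44). The 35 arms without enrichment had 23 higher and 2 lower (median log2 1.26). An arm that fell by about the general amount in CPM is near 0 here. Levels and ratios below are in CPM unless the share scale is named.

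The miR-290-295 cluster was the largest block of the profile. Its 12 arms summed to 47692 CPM in the rescued cells, 885 CPM without doxycycline, 224 CPM in Dicer null cells and 74903 CPM in wildtype cells. They took 51.7% of hairpin reads of 20 to 24 nt in the rescued cells and 38.5% in wildtype cells. In CPM, 1 of the 12 arms was at least 2-fold higher and 7 at least 2-fold lower, with a median log2 ratio of −1.04 beside −1.31 for all arms; the share of lower arms was near the 58.5% of all 306.

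Within the cluster the 3 arms with the seed CUCAAAC stood at 51.8% to 101% of wildtype. Mir292-5p, the most abundant miRNA of both libraries, stood at 24934 CPM in the rescued cells, 480 CPM without doxycycline, 46.2 CPM in Dicer null cells and 24727 CPM in wildtype cells. Its log2 ratio was 0.01 (0.01 to 0.02), at the wildtype level, and on the share scale it was higher in rescued cells (log2 1.09). Mir293-5p, with the same seed, stood at 5765, 94.8, 76.8 and 9273 CPM in that order, or 62.2% of wildtype. Mir290a-5p, the other 5' arm with this seed, reached 356 CPM in rescued and 687 CPM in wildtype cells. The 5 3' arms over the minimum stood lower than these. Mir293-3p had 8883 CPM in rescued and 18357 CPM in wildtype cells, 48.4% of wildtype, and on the share scale it was level (log2 0.03). Mir292-3p had 2826 and 7006 CPM in rescued and wildtype cells, 40.3% of wildtype. Mir291a-3p (839 and 2254 CPM), Mir294-3p (1140 and 3297 CPM) and Mir295-3p (2216 and 7222 CPM), which carry the AAGUGCU seed that promotes the G1-to-S transition of stem cells, stood at 37.2%, 34.6% and 30.7% of wildtype. The cluster also held the arm with the fewest wildtype reads of the 306, Mir291b-5p, at 20.6 CPM in rescued and 6.603 CPM in wildtype cells (log2 1.64, 1.41 to 1.88). Mir291a-5p, its near copy with the same seed, stood the other way, at 597 CPM in rescued and 1847 CPM in wildtype cells. The sequences of the pair are nearly identical, so the split of reads between them is uncertain.
miR-291b-5p: gAUCAAAGuggaggcccucucc
miR-291a-5p: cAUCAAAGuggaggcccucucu

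The miR-302 cluster stayed far under its wildtype level. Its 5 arms summed to 47.4 CPM in the rescued cells, 1.51 CPM without doxycycline, 26.3 CPM in Dicer null cells and 3516 CPM in wildtype cells. All 5 were at least 2-fold lower on both scales, beside 58.5% (CPM) and 27.8% (share scale) of all 306 arms. The median log2 ratio of the 5 was −6.32. Mir302b-3p, the cluster's main arm, had 25.1 CPM in rescued, 0.53 CPM in uninduced, 0.18 CPM in Dicer null and 2149 CPM in wildtype cells (log2 −6.42, −6.53 to −6.31). It ranked 181st of the 306 arms in rescued cells and 20th in wildtype cells. Mir302d-3p had 8.01 and 607 CPM in rescued and wildtype cells, and Mir302a-3p 3.84 and 307 CPM. Mir302a-5p had 10.2 CPM in rescued cells, 0.87 CPM without doxycycline, 25.5 CPM in Dicer null cells and 430 CPM in wildtype cells, so that in this arm the rescued cells lay below the Dicer null background. Mir367-3p, a member of the miR-25/92 seed family, rested on 7 reads in the rescued cells (0.25 CPM) against 24.1 CPM in wildtype cells.

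The low miR-302 level was also found in other libraries of the rescued line. In the 2 tagged inputs, whose cloning took RNA with any 5' end, Mir302b-3p had 7.29 and 3.55 CPM beside 6107 and 4519 CPM of Mir294-3p. The 2 tagged pull-downs held 153 and 79.9 CPM of it. Wildtype cells have no replicate in the series, so a high miR-302 level in that library was seen in 1 library alone. The line before it lost its own Argonautes was not analysed here, so a miRNA that the clone made little of from the start and one that Ago2 did not bring back cannot be told apart. Sums by seed leave out Mir302a-3p, for which no RefSeq mature sequence was at hand. By seed, the 5 other arms with AAGUGCU summed to 4228 CPM in rescued and 15529 CPM in wildtype cells (27.2%). The 3 arms with CUCAAAC summed to 31055 and 34687 CPM (89.5%).

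The miR-17-92 cluster, known to promote proliferation, came back less far than the median arm. Of its 10 arms 9 were at least 2-fold lower and 1 at least 2-fold higher in rescued cells, beside 58.5% and 2.94% of all 306 arms. The median log2 ratio was −2.07, beside −1.31 for all arms. The sums were 5048 CPM in rescued, 190 CPM in uninduced, 15.6 CPM in Dicer null and 20047 CPM in wildtype cells. Mir20a-5p had 1830 CPM in rescued, 22.6 CPM in uninduced, 9.51 CPM in Dicer null and 8691 CPM in wildtype cells (21.1% of wildtype). Mir17-5p had 475 and 3216 CPM in rescued and wildtype cells (14.8%), and Mir92-1-3p 2007 and 5288 CPM (37.96%). The arm that was higher was the passenger strand Mir92-1-5p, at 118 CPM in rescued, 98.2 CPM in uninduced, 1.498 CPM in Dicer null and 46.3 CPM in wildtype cells; it was thus almost as high without doxycycline.

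The paralogous clusters followed the same pattern. Of the 15 arms of miR-106b-25 and miR-106a-363, 11 were at least 2-fold lower and none at least 2-fold higher, beside 58.5% and 2.94% of all 306 arms. With so few arms this count alone does not set the clusters apart. Their median log2 ratio was −1.93, beside −1.31 for all arms. The lowest were Mir106a-5p (175 CPM in rescued and 1574 CPM in wildtype cells, log2 −3.17) and Mir20b-5p (456 and 3873 CPM, log2 −3.09), both from the X chromosome. Across all 3 clusters the 6 arms with the seed AAAGUGC summed to 3312 CPM in rescued and 19067 CPM in wildtype cells, 17.4% of wildtype, and each of the 6 lay between log2 −3.17 and −2.11. The 8 arms with the seed AUUGCAC, among them miR-25, miR-92 and miR-363, reached 32.5%. Over enriched arms the median log2 ratio was −1.54 for 25 X-linked arms and −1.40 for 221 autosomal ones. The sums were 1876 CPM in rescued and 9189 CPM in wildtype cells for the X-linked arms (20.4%), and 48.9% of wildtype for the autosomal ones. Both sums lean on a single cluster, so they do not set the chromosomes apart. The X-linked miR-106a-363 cluster had 1340 CPM in rescued and 7998 CPM in wildtype cells. The autosomal miR-290-295 cluster had 47692 and 74903 CPM, beside autosomal sums of 85136 and 174045 CPM.

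**Figure D2:**
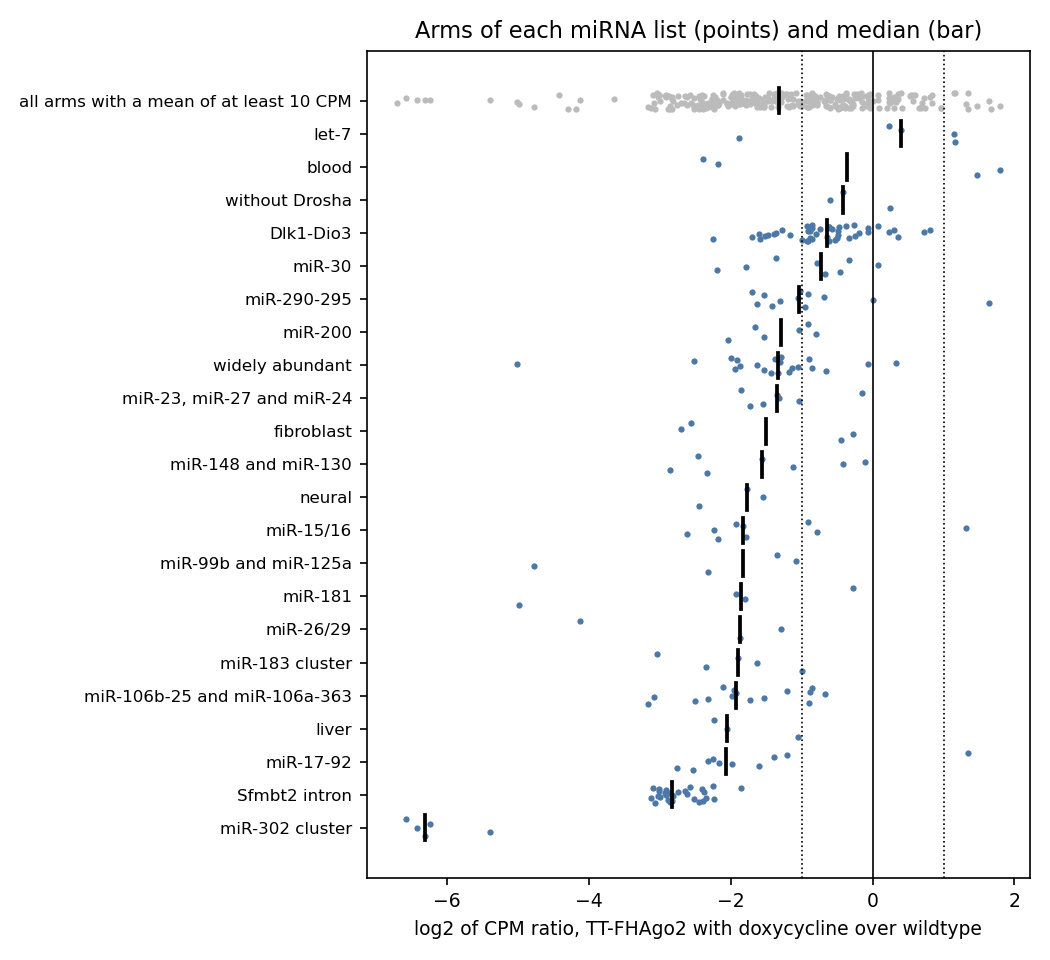
log2 ratio of CPM, TT-FHAgo2 with doxycycline over wildtype, for each arm (point) of the lists with at least 3 arms, with the median of each list as a bar and all 306 arms on top. The solid line is equality and the dotted lines are 2-fold; the medians run from −6.32 for the miR-302 cluster to 0.40 for let-7, and the Sfmbt2 intron arms form the tightest list of 10 arms or more.

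The miR-183 cluster (with miR-96 and miR-182), a polycistron also known from sensory organs, fell in the same way, with 5 of 5 arms at least 2-fold lower (median log2 −1.89). Over all 306 arms 58.5% were lower, with a median of −1.31. Mir182-5p, which ranked 3rd in wildtype cells, had 2372 CPM in rescued, 54.6 CPM in uninduced, 255 CPM in Dicer null and 12145 CPM in wildtype cells (19.5% of wildtype). Mir183-5p had 1705, 17.8, 350 and 6329 CPM in that order (26.9%). Mir96-5p had 226 CPM in rescued and 1859 CPM in wildtype cells (12.2%). Dicer null reads of Mir182-5p and Mir183-5p were well over the floor of that library, and the source of those reads was not tested.

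The 2 large imprinted miRNA clusters stood at different levels. The arms of the Sfmbt2 intron cluster, a maternally silenced array of repeated hairpins on chromosome 2, were all low. At least 2-fold lower on both scales were 29 of 29, beside 58.5% (CPM) and 27.8% (share scale) of all 306 arms. In CPM their median log2 ratio was −2.83, with an SD of 0.32 and a range of −3.12 to −1.86. They summed to 682 CPM in rescued, 13.0 CPM in uninduced, 1.79 CPM in Dicer null and 4289 CPM in wildtype cells. The merged arm of the Mir467a copies, its most abundant, had 224 CPM in rescued and 1218 CPM in wildtype cells. Mir467e-5p had 56.3 and 351 CPM, and the merged 3' arm of the Mir669a copies had 50.7 and 442 CPM. Reads of this array are shared by near-identical copies, which were merged; many of the 29 arms lie in the same intron and are not independent of each other.

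The Dlk1-Dio3 cluster on chromosome 12, expressed from the maternal chromosome and known to be silenced in some stem cell lines, came back further. None of its 46 arms was at least 2-fold higher and 11 were at least 2-fold lower, beside 2.94% and 58.5% of all 306 arms. Its median log2 ratio was −0.64 in CPM and 0.38 on the share scale. Its sums were 8763 CPM in rescued, 234 CPM in uninduced, 79.5 CPM in Dicer null and 14866 CPM in wildtype cells. Mir127-3p had 1125 CPM in rescued, 9.87 CPM in uninduced, 3.94 CPM in Dicer null and 1726 CPM in wildtype cells (65.2% of wildtype). Mir541-5p, a miRNA of 25 nt, had 1129 and 1731 CPM in rescued and wildtype cells (65.2%). Mir381-3p had 795 and 2050 CPM (38.8%). The arms of the cluster ran from Mir154-3p (17.1 and 81.4 CPM, log2 −2.25) to Mir433-3p (124 and 70.7 CPM, log2 0.81), with an SD of 0.63 over the 46 arms, within the range of the SDs between replicate libraries above.

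The let-7 family, low in stem cells and known to rise when they differentiate, had a summed level with Ago2 alone that was not below that of wildtype cells. Its 5 arms summed to 169 CPM in rescued, 5.54 CPM in uninduced, 1.63 CPM in Dicer null and 146 CPM in wildtype cells. The merged let-7a-5p feature had 15.7 and 7.07 CPM in rescued and wildtype cells (log2 1.15, 0.92 to 1.39) and that of let-7f-5p 57.1 and 25.8 CPM (log2 1.15, 1.02 to 1.27), both at least 2-fold higher. Let-7g-5p (66.3 and 50.3 CPM) and let-7i-5p (17.4 and 14.8 CPM) were within 2-fold, and let-7c-5p went the other way (12.9 and 47.7 CPM, log2 −1.89). The family remained under 0.2% of miRNA reads of 20 to 24 nt in each library (0.183% in rescued and 0.0746% in wildtype cells).

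Markers of other cell types were low in both libraries and did not move together. Of the 4 blood arms 2 were at least 2-fold higher and 2 lower. Mir142-5p (33.2 CPM in rescued, 4.93 in uninduced, 0.01 in Dicer null and 9.61 in wildtype cells) had the highest ratio of all arms, log2 1.79. Mir142-3p was also at least 2-fold higher (log2 1.47), with 35.2, 2.79, 0.11 and 12.7 CPM in that order. Mir150-5p, known from lymphocytes, had 17.3 CPM in rescued and 78.1 CPM in wildtype cells. With so few arms per list, counts of lower arms are read against the 58.5% of all 306 and set no list apart. The fibroblast list had 2 of 4 arms at least 2-fold lower, with Mir143-3p at 151 and 182 CPM, Mir10b-5p at 12.9 and 17.6 CPM and the merged Mir199a/b 3' arm at 5.89 and 38.4 CPM in rescued and wildtype cells. All 3 arms of the liver list (Mir192-5p, 59.0 and 122 CPM, and the 2 Mir194 features) and all 3 of the neural list (the merged Mir9 5' arm, 61.2 and 209 CPM, and both Mir124a arms) were at least 2-fold lower. The muscle list had only Mir499-5p over the minimum, at 48.0 and 52.7 CPM. Summed marker levels were 173 CPM or less per list in rescued cells and 296 CPM or less in wildtype cells, against 47692 and 74903 CPM for miR-290-295; the part of such cells in any result was not tested.

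**Figure D3:**
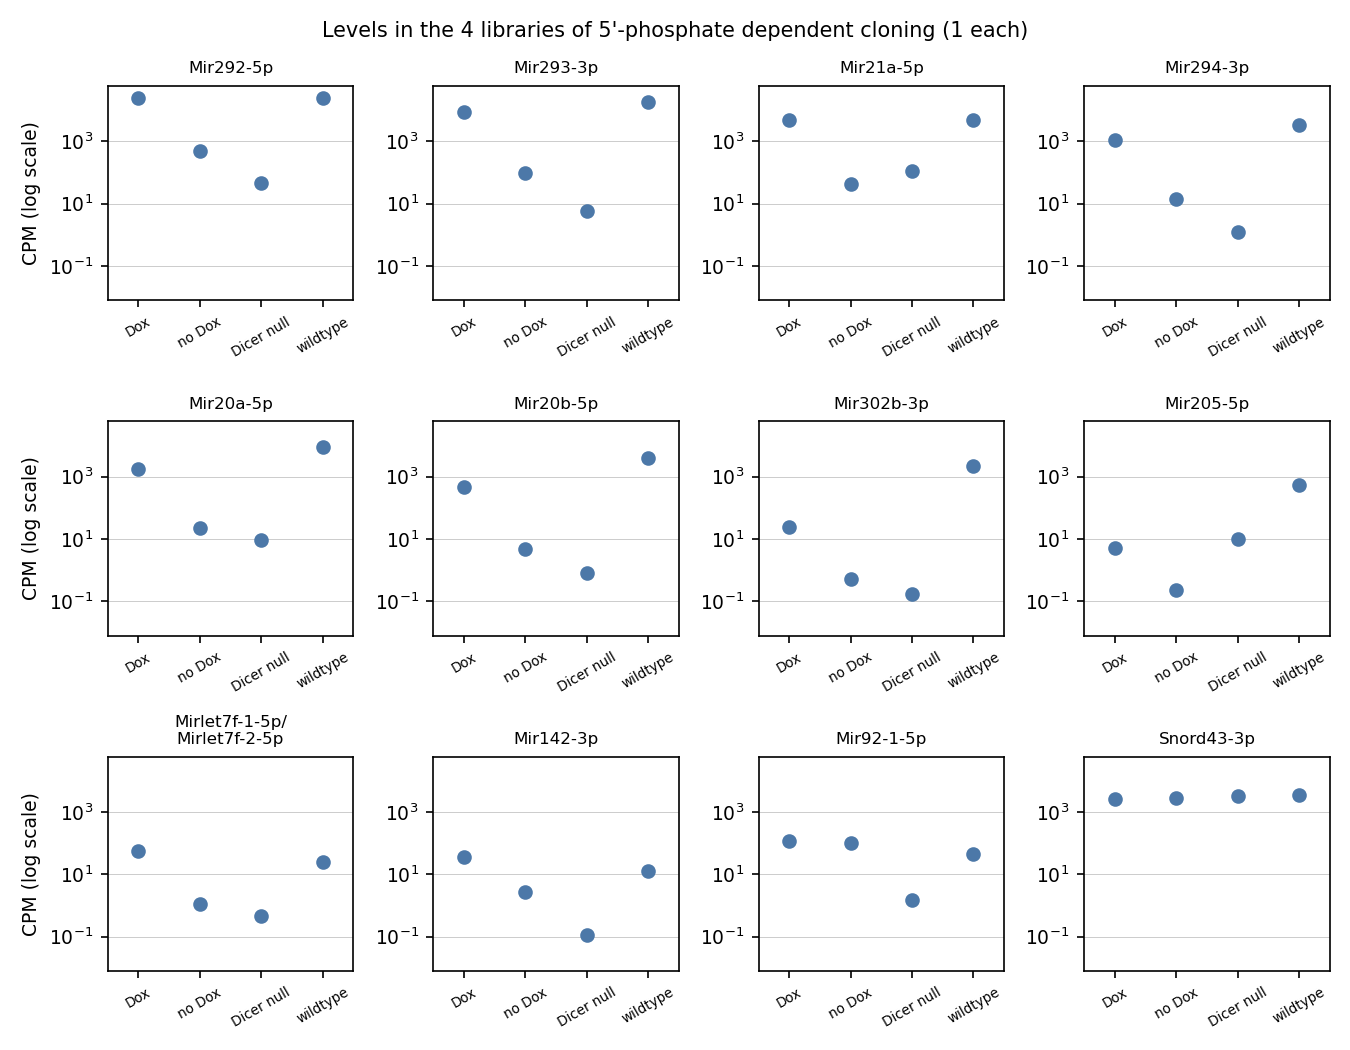
CPM on a log scale of 12 arms in TT-FHAgo2 cells with doxycycline (Dox), TT-FHAgo2 cells without it (no Dox), Dicer null cells and wildtype cells, 1 library each. Mir292-5p and Mir21a-5p reach the wildtype level, Mir302b-3p and Mir205-5p stay far below it, Mir92-1-5p is almost as high without doxycycline, and the snoRNA fragment Snord43-3p is level in all 4 libraries.

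Outside the clusters, the lowest ratios belonged to single miRNAs. Mir205-5p, a miRNA of epithelial cells, had the lowest of all, with 5.32 CPM in rescued, 0.23 CPM in uninduced, 10.1 CPM in Dicer null and 556 CPM in wildtype cells (log2 −6.71, −6.95 to −6.48). Its level in the 2 tagged inputs was also low, at 6.42 and 4.52 CPM. Mir210-3p, induced by low oxygen in many cells, had 7.73 CPM in rescued and 250 CPM in wildtype cells (log2 −5.02). The merged 5' arm of the Mir125b copies had 5.07 and 139 CPM (log2 −4.78), the merged 5' arm of the Mir181a copies 0.68 and 21.6 CPM (log2 −4.98) and Mir653-5p 1.01 and 21.7 CPM (log2 −4.43). Relatives of these miRNAs were less low. Mir125a-5p, with the seed of miR-125b, had 34.4 and 172 CPM (log2 −2.32) and Mir181d-5p 132 and 160 CPM (log2 −0.27). The list of miR-26 and miR-29 joins families with different seeds, so its arms are not relatives in this sense. In it Mir29a-3p (7.76 and 136 CPM, log2 −4.13) stood below the merged Mir26a 5' arm (610 and 2233 CPM, log2 −1.87).

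At the other end, 4 of the 10 highest ratios belonged to Mir142 and let-7, and 3 to merged features of Gm hairpins without enrichment in the pull-down. The merged 5' arm of Gm24105, Gm47295 and Gm47299 had 191 CPM in rescued, 193 CPM in uninduced, 190 CPM in Dicer null and 75.6 CPM in wildtype cells, so in the other 2 libraries, too, it was above wildtype. The other 3 were Mir291b-5p, Mir92-1-5p and Mir195a-3p. Mir195a-3p, a passenger strand, had 23.8 CPM in rescued, 17.6 CPM in uninduced, 0.10 CPM in Dicer null and 9.58 CPM in wildtype cells.

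Among widely expressed miRNAs, Mir21a-5p was fully back, with 4700 CPM in rescued, 42.9 CPM in uninduced, 115 CPM in Dicer null and 4897 CPM in wildtype cells (95.98% of wildtype), and it ranked 4th in rescued and 11th in wildtype cells; its log2 ratio of shares was 1.02. Mir148a-3p had 1750 and 2349 CPM in rescued and wildtype cells (74.5%). The merged 5' arm of Mir7-1 and Mir7-2 had 3669 and 8859 CPM (41.4%), near the median of all arms. The widely abundant list as a whole had 16 of 21 arms at least 2-fold lower and none at least 2-fold higher, with a median log2 ratio of −1.33. The miR-30 family had 3 of 8 arms lower (median −0.73), a smaller share than the 58.5% of all 306 arms, though of few arms. The miR-200 family, known from epithelia, had 4 of 6 lower (median −1.29), near that share and near the median of all 306 arms. Mir30a-5p had 1094 and 1504 CPM, Mir30e-5p 1302 and 3344 CPM, and Mir200b-3p 620 and 1277 CPM in rescued and wildtype cells. Further families are read against the same 58.5% and median of −1.31, and with so few arms each a count such as 6 of 9 does not set a family apart. They were the miR-15/16 family, which restrains the cell cycle (6 of 9 lower, 1 higher, median −1.83), miR-23/27/24 (6 of 7, −1.35), miR-148 and miR-130 (5 of 7, −1.56), miR-99b and miR-125a (4 of 4, −1.83), miR-181 (3 of 4, −1.86), miR-26/29 (3 of 3, −1.87) and miR-103 and miR-107 (2 of 2, −1.61). Within the miR-15/16 family Mir15b-5p had 18.9 and 116 CPM and the merged Mir16 5' arm 108 and 505 CPM. Mir27b-3p had 555 and 2006 CPM, and Mir103 3' arms together 332 and 1032 CPM.

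MiRNAs that bypass a processing step were few. Of the hairpins that are made without Drosha, 3 arms passed the minimum and none was past 2-fold (median log2 −0.42). Of all 306 arms 58.5% were lower and 2.94% higher, with a median of −1.31. With only 3 arms this count does not set the group apart. Mir320-3p had 89.7 CPM in rescued, 11.8 CPM in uninduced, 0.22 CPM in Dicer null and 136 CPM in wildtype cells. Mir484-5p had 120 and 160 CPM and Mir1981-5p 12.8 and 10.7 CPM in rescued and wildtype cells. Mir451a, which Ago2 cuts itself in place of Dicer, was too rare to compare, with 7 reads (0.25 CPM) in rescued, 4 reads (0.15 CPM) in uninduced, 26 reads (0.33 CPM) in Dicer null and 17 reads (0.53 CPM) in wildtype cells. The ratio of rescued over wildtype cells was 0.48, with an interval of 0.17 to 1.21 that includes equality.

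The choice of arm was mostly the same in both libraries. Of 190 hairpins with at least 500 reads over both, at least 95% of them unique to the hairpin, 185 used the same main arm, and the median size of the difference in the 5p share was 1.18 percentage points. The 5p share was over 10 points lower in rescued cells for 13 hairpins (6.84%) and over 10 points higher for 13 (6.84%). In Mir195a the 5p share was 54.0% (51.4 to 56.6) in rescued and 91.2% (90.2 to 92.1) in wildtype cells, since its 5' arm was low while its 3' arm was among the highest ratios. In Mir106b the 5p share was 47.1% in rescued and 73.1% in wildtype cells, so the main arm was the 3' arm in rescued and the 5' arm in wildtype cells. Mir361 (29.4% and 51.4%) showed the same change of main arm. In Mir296 the 5p share was 10.02% in rescued and 31.5% in wildtype cells, with the 3' arm ahead in both.

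In the other direction, Mir350 had a 5p share of 52.6% in rescued and 23.5% in wildtype cells, Mir130b 91.6% and 76.5%, Mir369 28.7% and 14.3%, and Mir27a 29.9% and 15.8%. Mir292, the deepest hairpin with 772550 reads in rescued and 1023555 reads in wildtype cells, had a 5p share of 89.8% in rescued and 77.9% in wildtype cells. Mir302c had 1 read of 10 on its 5' arm in rescued cells (interval 0.25 to 44.5%), against 53.1% in wildtype cells, and Mir302a 72.6% of 391 reads against 58.4%. Where both arms of a hairpin passed the minimum (49 pairs), the more abundant arm had a median log2 ratio of −1.40 and the less abundant one −1.003; the more abundant arm had the higher ratio in 22 pairs and the lower in 27.

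**Figure D4:**
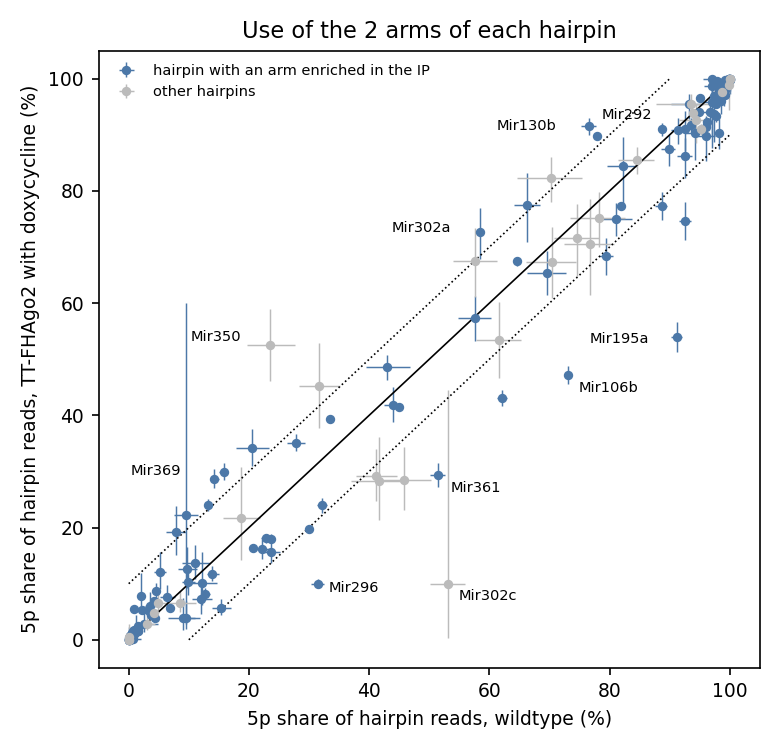
Share of a hairpin's reads that come from its 5' arm in TT-FHAgo2 cells with doxycycline (vertical) and wildtype cells (horizontal), for 190 hairpins, with exact 95% binomial intervals. The solid line is equality and the dotted lines are 10 percentage points; other hairpins (grey) include those whose arms are under the minimum of 10 CPM.

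The main 5' end of an arm was nearly always the same in rescued and wildtype cells, while lengths differed more often. Of 271 enriched arms, 267 had the same main 5' end, which held a median of 98.3% of an arm's reads in rescued and 98.8% in wildtype cells, and 246 had the same most frequent length, which was shorter in rescued cells for 21 and longer for 4. In sum, reads of 21 nt made up 25.4% of hairpin reads in rescued and 18.4% in wildtype cells, those of 22 nt 36.9% and 36.7%, and those of 23 nt 16.6% and 25.9%. Within an arm the median difference in mean length was −0.02 nt. The abundant miRNAs differ in length, and the part of their mix in the summed lengths was not tested. Mir292-5p is mainly 21 nt long (57.3% of its reads in rescued and 64.3% in wildtype cells), and the AAAGUGC arm Mir20a-5p 23 nt (96.6% and 96.3%).

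Some arms were shorter. In rescued cells 30 of 271 arms (11.1%) were shorter by at least 0.2 nt and 8 (2.95%) longer. Mir503-5p averaged 21.0 nt in rescued and 22.2 nt in wildtype cells, Mir18-3p 20.1 and 21.3 nt, and Mir92-1-5p 21.4 and 22.4 nt. Mir339-5p was longer, at 22.5 and 21.8 nt. Reads carrying 1 or 2 extra 3' bases that the hairpin does not hold, as enzymes that tail miRNAs add them, were a median of 14.5% of an arm's reads in rescued and 15.9% in wildtype cells, lower in rescued cells for 198 arms and higher for 73. This share also counts sequencing errors at the last bases and genomic bases past the annotated hairpin.

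**Figure D5:**
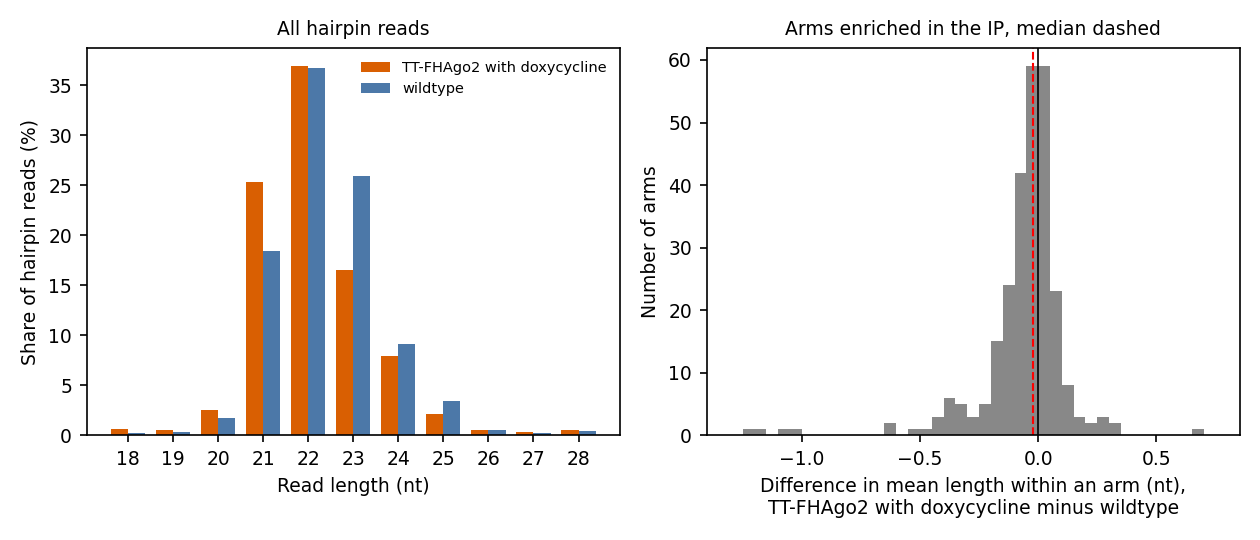
Left, share of hairpin reads by length in TT-FHAgo2 cells with doxycycline and in wildtype cells, 1 library each. Right, difference in mean read length (reads up to 30 nt) within each of the 271 arms enriched in the FLAG pull-down, rescued minus wildtype, with the median of −0.02 nt dashed.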

How the data were processed

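The deposited files give, per the files' own layout, a read sequence and its raw count, which the authors left unnormalized; an aligner, trimming and filters are not given in the sources used here. Reads of 18 nt or more were matched exactly, sense strand, to 2202 miRNA hairpins of GENCODE vM21 (GRCm38). A read centre left or right of the hairpin's centre set the arm, and reads found in several hairpins went to 1 merged feature (57 of the 306 arms). CPM uses the file total. Of the 306 arms, 228 held a RefSeq mature sequence. Reads under 18 nt were 10.8% of the rescued and 6.78% of the wildtype file, and reads at the longest length, 40 nt, 20.6% and 18.5%. Groups came from the labels, and no test was made with 1 library per group. Named arms were the 10 highest and 10 lowest ratios, the 12 most abundant, 3 per list, Mir451a, and the 5 largest 5p share differences each way; others are members of lists, or were chosen after their values were seen. Members and lists were chosen with earlier results of these data known. Matching and ratio intervals were tested on simulated data. Files of the untagged pull-down were not used here. Alternatives were scaling, the minimum, the fold, split or merged reads, extra bases, distinct sequences, mature 5' ends, length and, added after seeing the data, enriched arms. Python 3.11.15, numpy 2.4.6, pandas 2.3.3, scipy 1.17.1 and matplotlib 3.10.9 were used.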

Additional observations from a re-analysis of the deposited data

How the results depend on the processing

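No paired analysis was possible because each group had 1 library. Arms higher, arms lower and the median log2 ratio (9, 179 and −1.31) were 54, 85 and −0.26 as shares of hairpin reads of 20 to 24 nt, and 62, 63 and 0.00 with median-of-ratios factors, which centre the ratios by construction. The minimum also sets the number of arms, which was 306 in the main setting. The 3 values were 27, 334 and −1.17 among 607 arms with a mean of at least 1 CPM. Higher and lower arms were 1 and 75 among 127 arms at 100 CPM. The median was −1.52 in enriched arms alone. Higher arms were 20 at 1.5-fold and 3 at 3-fold, and the median was −1.54 with shared reads split equally. With each distinct sequence given a single count, which discards abundance, there were 1 higher and 0 lower arms among 111 and a median of 0.00284. The hairpin share of 10.3% in rescued and 21.1% in wildtype cells became 12.1% and 25.3% with extra 3' bases, 11.5% and 22.6% of reads of 18 nt or more, and 39.3% and 57.3% of reads of 20 to 24 nt. Hairpins over 10 points in the 5p share (26) became 46 by distinct sequences.

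Many log2 ratios that were within 2-fold in CPM changed sign and are not listed. Examples are Mir21a-5p (−0.06 in CPM, 1.02 by shares, 1.25 by median-of-ratios) and Mir127-3p (−0.62, 0.46 and 0.70 in that order). Of the named arms past 2-fold in CPM, some also changed sign, to values between −0.20 and 0.46. By shares these were Mir192-5p (0.0169), Mir200b-3p (0.0364), Mir24-3p (0.0446) and Mir293-3p (0.0283). By median-of-ratios they were Mir130b-5p (0.19), Mir192-5p (0.26), Mir200b-3p (0.27), Mir24-3p (0.28), Mir26b-5p (0.0250), Mir292-3p (0.00397), Mir293-3p (0.27) and Mir7-5p (0.0418). By distinct sequences they were Mir103-3p (0.0225), Mir107-3p (0.34), Mir130b-5p (0.46), Mir181c-3p (0.0225), Mir181c-5p (0.12), Mir194-5p (0.29), Mir27b-3p (0.17), Mir293-3p (0.0826), Mir295-3p (0.0731), Mir653-5p (0.0225), Mir7-5p (0.0225), Mir92-1-3p (0.12) and let-7f-5p (−0.20). Differences in the 5p share by distinct sequences changed sign for Mir302c (5.0 points), Mir296 (1.83), Mir27a (−0.89) and Mir350 (−1.43). The cause was not tested. The median-of-ratios factors move every ratio by the median of all arms, and on that scale an arm that was not restored as far as the median counts as lower.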

Other observations

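A few arms that were low in Dicer null cells kept 50% or more of their rescued level without doxycycline. Chosen after their values were seen, 9 of the 306 arms had at least 50% of their rescued level without doxycycline and at most 10% of their wildtype level in Dicer null cells; the enriched arms as a whole had a median of 1.92% of the rescued level. Mir708-3p had 95.7 CPM in rescued, 75.8 CPM in uninduced, 0.91 CPM in Dicer null and 174 CPM in wildtype cells. Mir299a-3p had 124, 72.8, 0.19 and 224 CPM in that order, and Mir16-1-3p 59.4, 46.5, 4.85 and 102 CPM. Mir27a-5p had 36.9, 36.2, 0.47 and 41.2 CPM, and Mir25-5p 26.6, 13.7, 0.65 and 42.2 CPM. Mir92-1-5p and Mir195a-3p, described above, belong to them, as does the merged Mir124a 5' arm (7.76, 9.27, 0.29 and 22.7 CPM). The ninth, a merged feature of Gm22369, Mir3473b and other hairpins, had 2.48, 1.51, 4.32 and 48.7 CPM and was read at 18 nt.

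Among enriched arms, the few whose main read began with G had the highest median ratio, while arms with A and U were alike. The 12 arms that began with G had a median log2 ratio of −0.53, against −1.53 for 86 arms with A, −1.15 for 43 with C and −1.54 for 130 with U. By summed level G arms stood at 82.1% of wildtype, A arms at 61.2% and U arms at 36.9%. C arms were lowest on that measure, so the order of the other bases changed. G arms also had more background. Their median level without doxycycline was 3.15% of wildtype, against 0.602% for A, 1.75% for C and 0.586% for U. The part of this background in the ratio was not tested. Spearman's rho of the ratio was 0.24 with the GC content of the main read and −0.11 with its length in wildtype cells over 271 arms, as descriptions across arms of the same 2 libraries.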
